A study of Mus musculus with 6 samples.

Results

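The *Cyp2c* genes encode one family of liver cytochrome P450 enzymes, and 10 of them (*Cyp2c29*, *Cyp2c37*, *Cyp2c38*, *Cyp2c39*, *Cyp2c40*, *Cyp2c44*, *Cyp2c50*, *Cyp2c54*, *Cyp2c67* and *Cyp2c70*) were compared between livers with and without hepatic *Tcf7l2*. They were taken as a list of gene symbols, with no expression value in the rule, are 10 of the 23282 genes counted in every library, and 10 of 10 passed the filter on low counts. Gene expression was measured by RNA sequencing of whole liver in 3 wild-type and 3 *Tcf7l2* liver-specific knockout libraries. In the knockout, *Alb-Cre;Tcf7l2* f/f, a Cre recombinase driven by the albumin promoter, active in hepatocytes, deletes a floxed exon of *Tcf7l2*. Whether other liver cells keep the gene was not tested here. The wild-type group was *Tcf7l2* f/f without Cre and carried the same floxed allele. The mice, of strain C57BL/6 in the labels and C57BL/6N in the study's text, were 12 weeks old and sampled after a 24 h fast and 24 h of refeeding with normal chow. The labels number the wild-type libraries 7-2, 8-1 and 8-3 and the knockout libraries 7-2, 7-3 and 8-3. They do not say that each library came from a different animal, so the p-values measure the spread between these libraries.

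Cytochrome P450 enzymes are haem proteins of the endoplasmic reticulum that insert oxygen into drugs, steroids and fatty acids with electrons passed on by P450 oxidoreductase. Enzymes of the mouse CYP2C family turn arachidonic acid and linoleic acid into epoxides and hydroxy acids, and soluble epoxide hydrolase, the product of *Ephx2*, breaks the epoxides down. Many *Cyp2c* genes respond to the xenobiotic receptors CAR (*Nr1i3*) and PXR (*Nr1i2*), and several are expressed mainly in hepatocytes around the central vein. The pericentral programme of the liver depends on Wnt and β-catenin signalling, for which TCF7L2 is a DNA-binding partner.

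Of the 10 genes, 9 lie in one cluster on chromosome 19, between *Cyp2c29* (chr19:39287044-39330713 in GRCm38.p6, the RefSeq assembly of the mm10 build) and *Cyp2c70* (chr19:40153361-40187286). *Cyp2c44*, named *Cyp2c23* by RefSeq, stands apart at chr19:44005022-44029256. The annotated span of *Cyp2c39* on the forward strand encloses that of *Cyp2c38* on the reverse strand. Each gene has 9 exons and encodes a protein of 489 to 494 residues. By the proteins they encode (GENCODE canonical transcripts), 3 groups shared at least 90% of their residues. *Cyp2c37* and *Cyp2c50* were 94.5% identical, *Cyp2c37* and *Cyp2c54* 91.2%, and *Cyp2c54* and *Cyp2c50* 92.4%. *Cyp2c67* and *Cyp2c40* were 95.9% identical, and *Cyp2c39* and *Cyp2c38* 92.0%. *Cyp2c29* was closest to *Cyp2c39*, at 84.9%, while *Cyp2c70* and *Cyp2c44* were no more than 60.3% identical to any other of the 10.

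**Figure D1:**
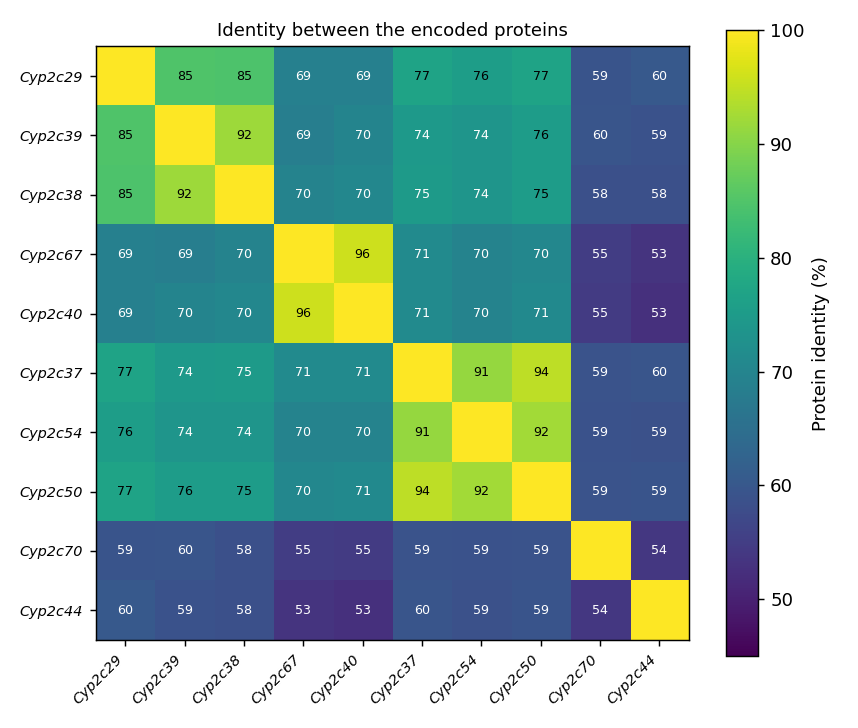
Percent identity of the encoded proteins for every pair of the 10 *Cyp2c* genes, in chromosome order, with the colour scale running from 45% to 100%. The blocks of *Cyp2c39* with *Cyp2c38*, *Cyp2c67* with *Cyp2c40*, and *Cyp2c37* with *Cyp2c54* and *Cyp2c50* lie above 90%, and the rows of *Cyp2c70* and *Cyp2c44* at 60.3% or below.

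This likeness bears on the counts, because the authors counted multiple alignments as well as unique ones. Of all 50-base stretches of the transcript, 52.6% in *Cyp2c67*, 43.4% in *Cyp2c40*, 30.2% in *Cyp2c37*, and 29.3% in *Cyp2c50* also occurred in the transcript of another *Cyp2c* gene. In *Cyp2c54* 452 of 3015 stretches did. The share was 7.4% in *Cyp2c38*, 7.2% in *Cyp2c39*, 0.5% in *Cyp2c29* and 0.0% in *Cyp2c70* and *Cyp2c44*. Values within the 3 close groups are therefore uncertain as to which neighbour gave some of the reads. The counting is not stated to use strand, so reads of *Cyp2c38* and of overlapping *Cyp2c39* transcripts may not be told apart either.

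Promoters were searched for short words of liver transcription factors, because TCF7L2 is the gene product deleted. RefSeq promoter windows, from 250 bases before to 50 bases after the start, were held for 8 of the 10 genes, with 2 windows for *Cyp2c39*. The 100 bases that begin 150 and end 51 bases before the RefSeq start are shown for the called gene *Cyp2c37*, its close neighbour *Cyp2c50*, the most abundant gene *Cyp2c29*, the gene of widest spread among knockout libraries, *Cyp2c38*, and the divergent *Cyp2c70*. Capitals mark the TCF/LEF, C/EBP and HNF4 words.
*Cyp2c37* (chr19:39992274-39992373, forward strand): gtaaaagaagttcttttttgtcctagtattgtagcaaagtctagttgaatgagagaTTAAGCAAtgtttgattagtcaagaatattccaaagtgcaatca
*Cyp2c50* (chr19:40089529-40089628, forward strand): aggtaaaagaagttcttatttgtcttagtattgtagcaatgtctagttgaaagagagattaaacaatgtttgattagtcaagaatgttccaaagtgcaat
*Cyp2c29* (chr19:39286935-39287034, forward strand): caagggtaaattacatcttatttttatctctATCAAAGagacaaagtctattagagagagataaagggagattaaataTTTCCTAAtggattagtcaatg
*Cyp2c38* (chr19:39463126-39463225, reverse strand): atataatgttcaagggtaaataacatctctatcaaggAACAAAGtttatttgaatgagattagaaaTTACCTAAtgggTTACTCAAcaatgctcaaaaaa
*Cyp2c70* (chr19:40187337-40187436, reverse strand): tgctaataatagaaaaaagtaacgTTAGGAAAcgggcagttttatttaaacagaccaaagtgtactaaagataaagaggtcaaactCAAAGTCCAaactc

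The *Cyp2c37* and *Cyp2c50* stretches were 90.2% identical in alignment, and the C/EBP word of *Cyp2c37* at position -94 was not in the *Cyp2c50* window. A TCF/LEF word (CTTTG followed by AA, AT, TA or TT, on either strand) stood in 4 of the 9 windows of these genes, against 16.9% of the 32851 mouse promoter windows searched. Those were the windows of *Cyp2c29* (ATCAAAG at position -119), *Cyp2c38* (AACAAAG at position -113) and both of *Cyp2c39*. The 2 *Cyp2c39* windows belong to one gene, and neither ends within its canonical transcript. *Cyp2c29*, *Cyp2c38* and *Cyp2c39* encode proteins 84.7% to 92.0% identical, so their windows may not be independent. The window of the called gene *Cyp2c37* held no TCF/LEF word. The HNF4 word CAAAGTCCA was in 3 of the 9 windows (*Cyp2c40*, *Cyp2c67* and *Cyp2c70*) and in 0.475% of all windows. This word can overlap a TCF/LEF word, as both hold CAAAG. The C/EBP word TTNCNNAA was found in 8 windows (40.7% of all windows), the nuclear receptor word AGGTCA or AGTTCA in 6 (27.7%) and TATAAA in 6 (13.6%). Overlapping words of different kinds were counted under each kind, on both strands. These matches describe the letters in the windows and were not tested against binding.

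Total counts ran from 60619938 to 133384586 per library. *Tcf7l2* itself stood at 4.88, 6.13 and 6.85 CPM (reads scaled to library size, here with factors from the trimmed mean of M-values, TMM) in the wild-type libraries and at 3.31, 2.74 and 3.33 CPM in the knockout libraries. Its log2 fold change was -0.93 (edgeR adjusted p = 0.0856, DESeq2 adjusted p = 0.00274), with all knockout libraries below all wild-type ones. These counts cover the whole gene, so reads of exons other than the floxed one may remain in them. They do not measure how complete the deletion was. Summed hepatocyte markers ranged from 46210 to 50860 CPM in wild-type and from 41480 to 58370 CPM in knockout libraries, with 0 of 5 called. Summed stellate cell markers were 26.2 to 36.8 CPM in wild-type and 53.9 to 60.2 CPM in knockout libraries, and sinusoidal endothelial markers 42.3 to 46.3 and 50.4 to 58.0 CPM. Of these, 4 of 5 and 6 of 6 genes had a fold change above 0, none was called and none was at 0 in every library, and their part in the results was not tested. Kupffer cell, cholangiocyte and lymphocyte marker sums overlapped between the groups. Genes of the *Mup* family took 31.7% to 54.3% of counts in wild-type and 18.5% to 28.7% in knockout libraries, so the choice of scaling matters. Without TMM factors the median log2 fold change of all genes moved from -0.017 to 0.61. Every library had some genes at least 4-fold above all others, between 3 and 9 of them. In knockout 7-3 there were 9, and 2 of those were *Cyp2c38* and *Cyp2c39*, so results for both are given with and without that library.

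The *Cyp2c* genes did not move together. In the knockout, *Cyp2c37* was 2.57-fold lower and passed the test, *Cyp2c29* had a higher and *Cyp2c70* a lower mean without passing, and *Cyp2c40*, *Cyp2c44*, *Cyp2c50* and *Cyp2c54* differed by less than the spread between libraries. By edgeR (quasi-likelihood test, p-values adjusted by Benjamini-Hochberg over 14076 genes), 1 of the 10 was lower at an adjusted p under 0.05 (0.377% of all genes tested) and 0 were higher (0.0710%). At an unadjusted p under 0.05, 2 were lower (6.76% of all genes) and 2 higher (6.70%). By DESeq2, which gave no adjusted p for *Cyp2c38* and *Cyp2c39*, 1 was lower (1.78%) and 1 higher (1.48%). All knockout libraries lay below all wild-type libraries for 2 of the 10 (9.08% of all genes) and above them for 1 (10.2%), while 7 overlapped. Fold changes were below 0 for 4 genes and above 0 for 6, with a median log2 fold change of 0.11 against -0.017 over all genes. They ranged from -1.36 to 3.65, the top being *Cyp2c39*, also 1 of the 2 higher at an unadjusted p under 0.05. Without knockout 7-3 the median of the 10 genes was -0.043, against -0.016 over all genes. *Cyp2c39* was then at 0.046 and *Cyp2c38* at -4.39. With library sizes alone, *Cyp2c29*, *Cyp2c39* and *Cyp2c67* passed as higher (adjusted p = 0.0227, 0.00435 and 0.0441), *Cyp2c37* did not pass, and the log2 fold change of *Cyp2c70* turned to 0.11. Less RNA of a gene per cell and fewer cells that express it cannot be told apart in whole liver.

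**Figure D2:**
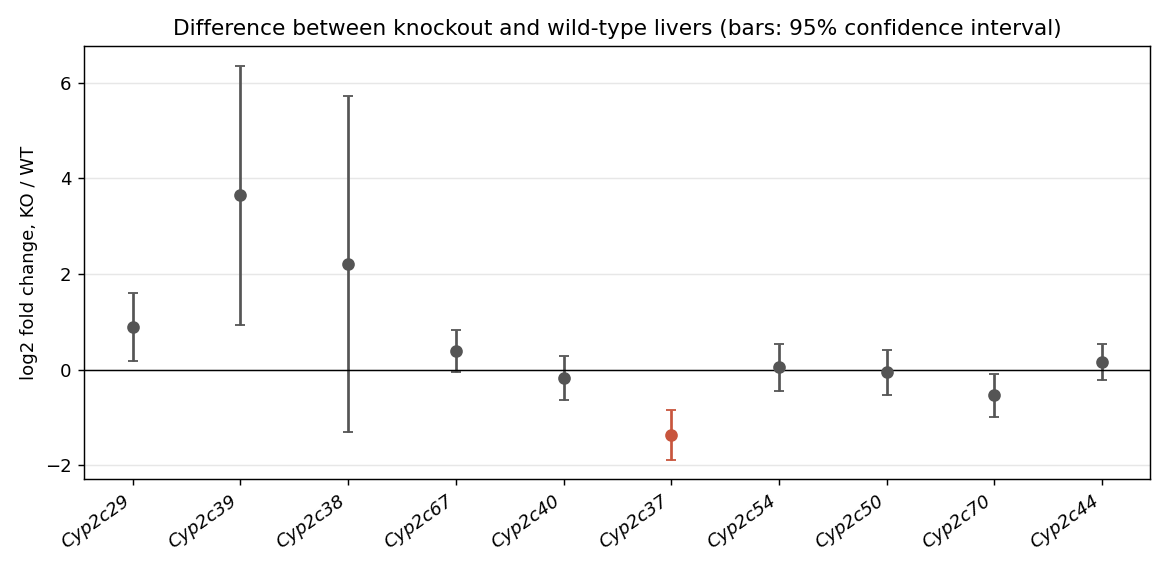
Log2 fold change of the 10 *Cyp2c* genes in knockout over wild-type liver (vertical axis, edgeR estimate) in chromosome order, with bars for the 95% confidence interval and 0 drawn as a line. *Cyp2c37*, in red, is the gene with an adjusted p under 0.05, and the intervals of *Cyp2c39* and *Cyp2c38* are the widest.

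The summed reads of the 10 genes, taken as one feature, stood at 2689, 2002 and 2220 CPM in the wild-type libraries and at 2467, 3324 and 2218 CPM in the knockout libraries. The groups overlapped, with means of 2303 ± 351 and 2669 ± 580 CPM (SD, n = 3 each). The log2 fold change of the sum was 0.21 (SE 0.24, 95% confidence interval -0.32 to 0.74, edgeR adjusted p = 0.719). Without knockout 7-3, the highest library, it was 0.024 (adjusted p = 0.981). Differences in single genes thus went with a total that was not shown to differ.

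*Cyp2c37*, whose product hydroxylates arachidonic acid and which is induced by phenobarbital, was the gene that fell. It stood at 201.3, 131.8 and 143.3 CPM in wild-type libraries 7-2, 8-1 and 8-3 and at 68.47, 71.82 and 44.99 CPM in knockout libraries 7-2, 7-3 and 8-3. The lowest wild-type library was above the highest knockout library. The means were 158.8 ± 37.3 and 61.8 ± 14.6 CPM (SD, n = 3 each), with a log2 fold change of -1.36 (SE 0.23, 95% confidence interval -1.88 to -0.84, edgeR adjusted p = 0.0418; DESeq2 adjusted p = 9.47e-07). The edgeR call rests on all 6 libraries: leaving out any of them kept the log2 fold change between -1.49 and -1.15 but took the adjusted p to between 0.0584 and 0.134. With library sizes alone it was -0.79 (adjusted p = 0.0937).

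*Cyp2c50* and *Cyp2c54*, the closest relatives of *Cyp2c37*, encode epoxygenases of arachidonic and linoleic acid. *Cyp2c50* was at 578.7, 359.4 and 458.2 CPM in wild-type and at 493.0, 457.2 and 391.1 CPM in knockout libraries, with a log2 fold change of -0.058 (SE 0.21, 95% confidence interval -0.53 to 0.42). *Cyp2c54* was at 205.2, 129.3 and 173.3 CPM and at 200.6, 190.6 and 135.1 CPM, with a log2 fold change of 0.052 (SE 0.22, 95% confidence interval -0.44 to 0.55). For both, the groups overlapped and the edgeR adjusted p was 0.937 and 0.947. Both intervals leave out a fall as large as the estimate for *Cyp2c37*.

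The ratio of counts within a library, which no scaling between libraries can change, separated *Cyp2c37* from both neighbours. *Cyp2c37* over *Cyp2c50* was 0.348, 0.367 and 0.313 in wild-type and 0.139, 0.157 and 0.115 in knockout libraries. *Cyp2c37* over *Cyp2c54* was 0.981, 1.02 and 0.827 in wild-type and 0.341, 0.377 and 0.333 in knockout libraries. *Cyp2c54* over *Cyp2c50* stayed between 0.345 and 0.417 in all 6 libraries. The groups did not overlap for the first 2 ratios (exact permutation test, two-sided, p = 0.1 each, the smallest that 3 against 3 allows) and overlapped for the last (p = 0.4). Such a design cannot reach 0.05. These pairs were picked, and as *Cyp2c37* was the called gene, the gap in the first 2 ratios follows in part from that choice. When the reads of the 3 genes were added, the sum had a log2 fold change of -0.21 (SE 0.22, edgeR adjusted p = 0.697), since *Cyp2c50* gave most of the reads.

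**Figure D3:**
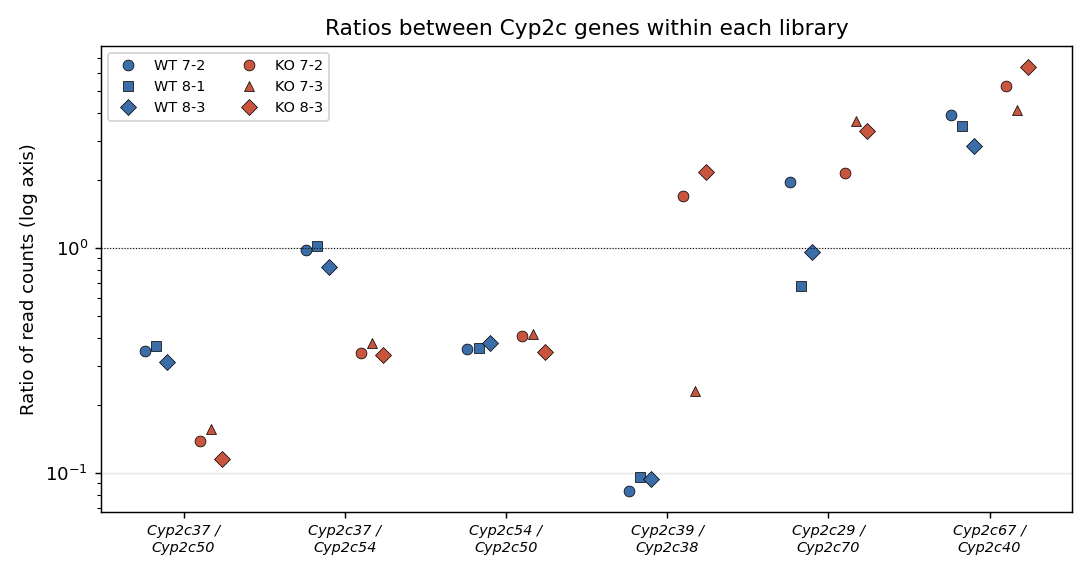
Ratio of the read counts of 2 *Cyp2c* genes in each of the 6 libraries (vertical log axis), for 6 picked gene pairs, with wild-type libraries in blue, knockout libraries in red and 1 marker shape per library number. The knockout points lie below the wild-type points for *Cyp2c37* over *Cyp2c50* and over *Cyp2c54*, above them for *Cyp2c39* over *Cyp2c38*, *Cyp2c29* over *Cyp2c70* and *Cyp2c67* over *Cyp2c40*, and among them for *Cyp2c54* over *Cyp2c50*.

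*Cyp2c29*, a phenobarbital-inducible epoxygenase of arachidonic acid and the most abundant of the 10, had a higher mean in the knockout. It was at 703.5, 324.1 and 475.0 CPM in wild-type and at 687.6, 1275 and 826.6 CPM in knockout libraries. Knockout 7-2 lay below wild-type 7-2, so the groups overlapped. The means were 500.8 ± 191.0 and 929.7 ± 306.9 CPM (SD, n = 3 each), and the log2 fold change of 0.89 (SE 0.32, 95% confidence interval 0.18 to 1.60) did not pass in edgeR (adjusted p = 0.266) and did in DESeq2 (adjusted p = 0.0469). Leaving out a library moved it between 0.60 and 1.22.

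*Cyp2c38*, an epoxygenase gene within the *Cyp2c39* span, gave the most uneven values. Its raw counts were 1510, 1091 and 1112 in wild-type and 67, 18157 and 74 in knockout libraries 7-2, 7-3 and 8-3. In CPM these were 22.7, 13.0 and 16.3 in wild-type and 0.791, 239.2 and 0.859 in knockout libraries. Knockout 7-3 was 10.5-fold above the highest other library, while the other knockout libraries were below every wild-type library. Over all libraries the log2 fold change was 2.21 (SE 1.57, edgeR adjusted p = 0.564). Without knockout 7-3 it was -4.39 (adjusted p = 0.000245), and without any other library it stayed between 2.04 and 2.79, so its direction turned on that library. DESeq2 gave no adjusted p for this gene.

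*Cyp2c39*, which encodes a retinoic acid hydroxylase, was the least expressed of the 10 in wild-type liver and was high in the same knockout library. It stood at 1.90, 1.25 and 1.53 CPM in wild-type and at 1.35, 55.4 and 1.87 CPM in knockout libraries, the high value again being knockout 7-3. This was 29.2-fold above the highest other library, whereas the other 5 libraries overlapped. The log2 fold change was 3.65 (SE 1.21, edgeR adjusted p = 0.244) with that library and 0.046 without it. The ratio of *Cyp2c39* to *Cyp2c38* counts was 0.0834, 0.0962 and 0.0935 in wild-type libraries and 1.70, 0.232 and 2.18 in knockout libraries. Knockout 7-3, high in both genes, thus had the knockout ratio nearest to wild-type, and knockout 7-2 and 8-3 had fewer reads over *Cyp2c38* than over *Cyp2c39*. Of the other genes high in knockout 7-3, *Cyp2d12* and *Cyp2d34*, P450 genes of another family that were picked out after their values were seen, stood at 949.5 and 699.3 CPM there. In knockout 7-2 they stood at 116.6 and 109.9 CPM, and in the other 4 libraries at 11.7 CPM or less.

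**Figure D4:**
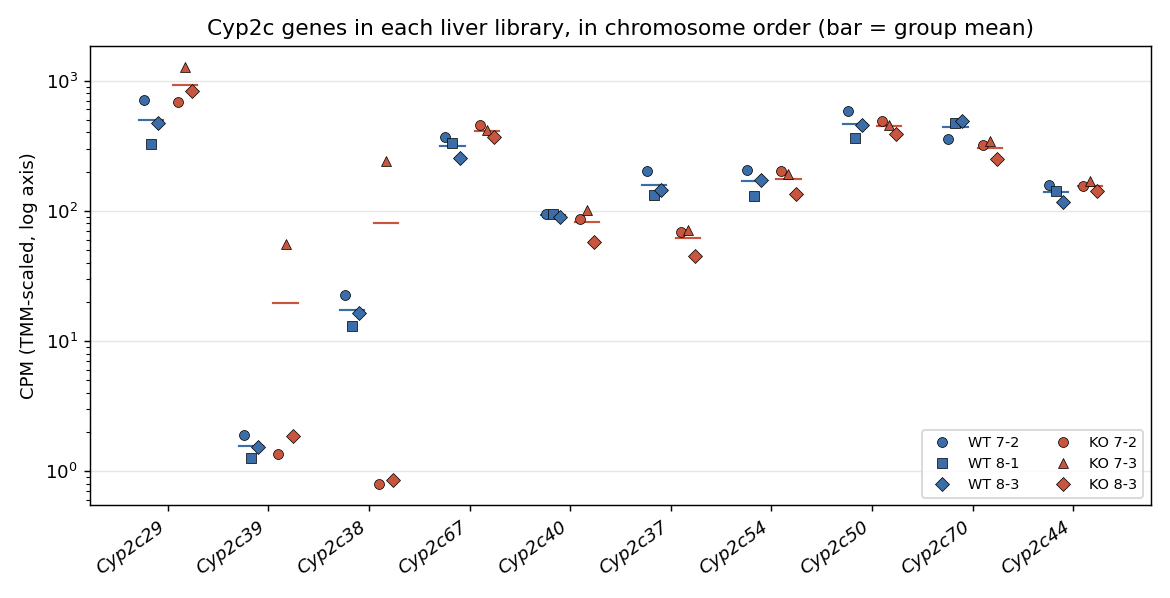
Level of the 10 *Cyp2c* genes in each library in TMM-scaled CPM (vertical log axis), in chromosome order, with wild-type libraries in blue, knockout libraries in red, 1 marker shape per library number and a bar at each group mean. For *Cyp2c38* the knockout points lie at 0.791, 0.859 and 239.2 CPM around the wild-type points, and for *Cyp2c37* all knockout points lie below the wild-type points.

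*Cyp2c70*, which encodes the rodent enzyme that makes muricholic acids and so shapes the mouse bile acid pool, was lower in every knockout than in any wild-type library after TMM scaling. It stood at 357.1, 476.1 and 492.4 CPM in wild-type and at 317.4, 346.5 and 248.7 CPM in knockout libraries. The highest knockout library was just below the lowest wild-type one. Its log2 fold change of -0.54 (SE 0.20, 95% confidence interval -0.99 to -0.083) did not pass (edgeR adjusted p = 0.295). This gene shares no 50-base stretch with another *Cyp2c* transcript. The ratio of *Cyp2c29* to *Cyp2c70* counts was 1.97, 0.681 and 0.965 in wild-type and 2.17, 3.68 and 3.32 in knockout libraries (exact permutation p = 0.1, the smallest possible). This pair was picked, its proteins being 59.2% identical. As *Cyp2c29* had a higher and *Cyp2c70* a lower knockout mean, the gap follows in part from the choice of pair.

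*Cyp2c67* was the gene whose knockout libraries all lay above the wild-type ones. It was at 366.0, 329.9 and 253.5 CPM in wild-type and at 455.8, 415.7 and 368.8 CPM in knockout libraries, with a log2 fold change of 0.39 (SE 0.19, 95% confidence interval -0.048 to 0.82, edgeR adjusted p = 0.421). *Cyp2c40*, its near-identical relative, was at 93.9, 93.9 and 88.9 CPM in wild-type and at 86.9, 101.5 and 57.7 CPM in knockout libraries, with a log2 fold change of -0.17 (SE 0.21, 95% confidence interval -0.63 to 0.29, edgeR adjusted p = 0.747). The reads of both together had a log2 fold change of 0.28 (SE 0.19, edgeR adjusted p = 0.548). This sum left out *Cyp2c68* and *Cyp2c69*. Their proteins were 95.1% and 95.9% identical to that of *Cyp2c67*, and 97.1% and 95.1% to that of *Cyp2c40*. The *Cyp2c40* transcript shared more of its 50-base stretches with *Cyp2c69* (24.8%) than with any other *Cyp2c* transcript. Reads shared with *Cyp2c68* or *Cyp2c69* are therefore not accounted for by the sum. *Cyp2c67* over *Cyp2c40* was 3.90, 3.51 and 2.85 in wild-type and 5.24, 4.10 and 6.39 in knockout libraries (exact permutation p = 0.1), with the groups apart. This pair was picked as well.

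*Cyp2c44*, an epoxygenase gene known from kidney and blood vessels as well as liver, did not differ beyond the spread between libraries. It was at 158.3, 142.7 and 117.7 CPM in wild-type and at 155.1, 170.8 and 142.2 CPM in knockout libraries. The groups overlapped, and the log2 fold change of 0.16 (SE 0.17, 95% confidence interval -0.22 to 0.54) did not pass (edgeR adjusted p = 0.705). The interval excludes a fall of the size estimated for *Cyp2c37*.

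The files held 16 *Cyp2c* rows in all. Of the 6 that are not among the 10, *Cyp2c68*, a neighbour of *Cyp2c67* and *Cyp2c40*, was at 222.7, 200.9 and 212.3 CPM in wild-type and at 168.7, 160.8 and 125.4 CPM in knockout libraries. Its groups did not overlap, and its log2 fold change of -0.48 (SE 0.17) did not pass (edgeR adjusted p = 0.265) and was 0.13 with library sizes alone. Of the 50-base stretches, 44.0% in *Cyp2c68* and 54.8% in *Cyp2c69* also occurred in another *Cyp2c* transcript, so reads may be shared here too. The log2 fold change of *Cyp2c69* was 0.13 (adjusted p = 0.798) and that of *Cyp2c55*, better known from colon and kidney, 0.49 (adjusted p = 0.597). The pseudogene *Cyp2c53-ps* ran from 0.323 to 0.823 CPM in wild-type and from 1.24 to 2.27 CPM in knockout libraries (log2 fold change 1.39, adjusted p = 0.180). *Cyp2c65* and *Cyp2c66* had at most 12 counts in a library and were not tested.

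Levels were compared between genes as CPM per kilobase of coding sequence. In wild-type liver *Cyp2c29* stood at 340.0 ± 129.7, *Cyp2c50* at 316.0 ± 74.6 and *Cyp2c70* at 300.6 ± 50.3 CPM per kilobase (SD, n = 3 each), and neighbours in this order overlapped. *Cyp2c67* followed at 214.4 ± 38.9, with every wild-type value above those of the next gene, *Cyp2c54*, at 114.9 ± 25.9. *Cyp2c54*, *Cyp2c37* at 107.8 ± 25.3 and *Cyp2c44* at 94.0 ± 13.8 overlapped from one to the next. *Cyp2c40* at 62.5 ± 2.0, *Cyp2c38* at 11.8 ± 3.3 and *Cyp2c39* at 1.06 ± 0.22 CPM per kilobase were each clear of the gene above. In the knockout *Cyp2c29* led at 631.2 ± 208.3 CPM per kilobase, and *Cyp2c37* stood at 41.9 ± 9.9. *Cyp2c38* and *Cyp2c39* had knockout means of 54.5 ± 93.4 and 13.3 ± 21.1 CPM per kilobase, set mostly by knockout 7-3, and 0.560 and 1.09 without it. The order depends in part on the length used. Per kilobase of whole transcript, a scale added after the data were seen, *Cyp2c37* was at 86.9 ± 20.4 and *Cyp2c54* at 55.2 ± 12.4 in wild-type liver, and *Cyp2c70* at 257.2 ± 43.0 and *Cyp2c50* at 244.6 ± 57.7, so both pairs changed places.

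As shares of the reads over the 10 genes, *Cyp2c29* took 26.2%, 16.2% and 21.4% in wild-type and 27.9%, 38.4% and 37.3% in knockout libraries. *Cyp2c37* took 7.49%, 6.58% and 6.45% in wild-type and 2.78%, 2.16% and 2.03% in knockout libraries. *Cyp2c70* took 13.3%, 23.8% and 22.2% in wild-type and 12.9%, 10.4% and 11.2% in knockout libraries. In these 3 genes the groups did not overlap, with differences of 13.2, -4.52 and -8.25 percentage points. Each reached the smallest exact permutation p of 0.1 (Benjamini-Hochberg adjusted 0.333 over the 10 shares). *Cyp2c38* made up 0.651% to 0.845% of the reads in wild-type libraries, 0.0321% and 0.0387% in knockout 7-2 and 8-3, and 7.20% in knockout 7-3. The other 6 shares overlapped between the groups or differed with an exact permutation p of 0.2 or more.

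**Figure D5:**
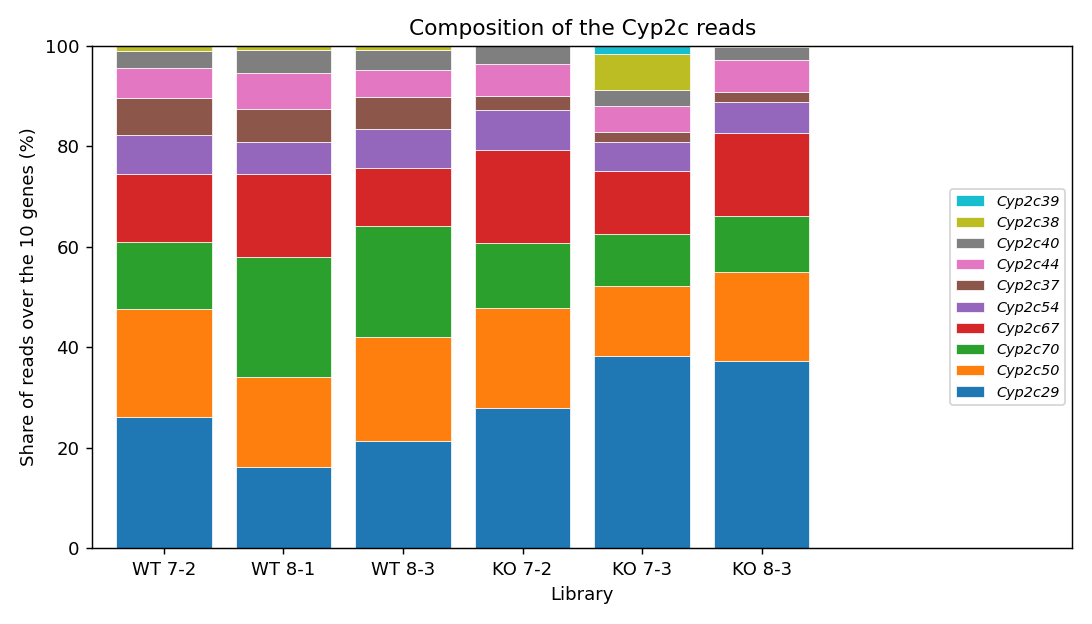
Share of the reads over the 10 *Cyp2c* genes taken by each gene (vertical axis, percent, stacked to 100) in the 3 wild-type and 3 knockout libraries. The *Cyp2c29* segment at the bottom is largest in knockout 7-3 and 8-3, at 38.4% and 37.3%, and the *Cyp2c38* segment reaches 7.20% in knockout 7-3.

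Across the 6 libraries, *Cyp2c50* and *Cyp2c54* varied most alike of the 10, with a Pearson's r of 0.93 between their log2 CPM values, and *Cyp2c44* and *Cyp2c67* came next at 0.88. *Cyp2c29* and *Cyp2c70* were the least alike, at -0.69. Outside the family and among 5655 genes with a mean log2 CPM above 3, those most like *Cyp2c29* were *Nxt2* (r = 0.99), *P4ha1* (0.99), *Pi4ka* (0.98), *Ugt2b35* (0.98) and *Ccny* (0.98). These correlations describe 6 points that share library depth and scaling and include both genotypes.

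Of 15 pericentral and Wnt target genes, 10 were lower and 0 higher by edgeR adjusted p (13 and 0 unadjusted), with a median log2 fold change of -2.13 against -0.017 over all genes. Of all genes tested, 0.377% were lower and 0.0710% higher by adjusted p under 0.05, and 6.76% and 6.70% unadjusted. This list and those that follow were chosen with earlier results of these data known. *Cyp2a5*, a coumarin hydroxylase, went from 135.7 to 184.6 CPM in wild-type libraries to 0.139 to 0.593 CPM in knockout libraries (log2 fold change -8.78, edgeR adjusted p = 2.75e-05). *Oat*, ornithine aminotransferase, fell by 5.04 on the log2 scale (adjusted p = 2.75e-05) and *Slc1a2*, a glutamate transporter, by 2.54 (adjusted p = 5.78e-05). Among the periportal genes, 0 of 12 passed in either direction (0 lower and 2 higher unadjusted, median 0.24), *Gls2*, a glutaminase, having a log2 fold change of 0.74 (adjusted p = 0.0877). *Gls2* and the P450 gene *Cyp2f2* passed as higher by DESeq2 (adjusted p = 0.000167 and 0.00377), and *Gls2* also with quantile normalisation and limma (0.0395).

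The partners of the CYP2C enzymes did not pass the test. For the unadjusted counts given here, 6.76% of all genes were lower and 6.70% higher by edgeR. In the list of P450 electron donors and haem supply, 0 of 14 genes passed (1 lower and 1 higher unadjusted, median log2 fold change 0.10). *Alas1*, the rate-limiting enzyme of haem synthesis, was at 173.5 to 178.3 CPM in wild-type and 227.4 to 281.8 CPM in knockout libraries, with a log2 fold change of 0.49 (edgeR adjusted p = 0.244). The lower gene was *Alad*, with a log2 fold change of -0.51 (adjusted p = 0.352). Of 9 other epoxygenase and epoxide hydrolase genes, 5 were tested and 0 passed (0 unadjusted, median -0.093). Among them *Cyp2j9* was at -0.41 (edgeR adjusted p = 0.488) and *Cyp2j5*, a liver epoxygenase, at 0.22 (adjusted p = 0.590). Of 17 regulators of hepatic *Cyp2c* genes, 0 passed in either direction (2 lower and 2 higher unadjusted, median 0.14). By DESeq2, *Nr0b2*, which encodes the corepressor SHP, passed at -0.66 (adjusted p = 0.0376, against 0.158 in edgeR). *Ahr*, the dioxin receptor, had a log2 fold change of -0.76 (edgeR adjusted p = 0.199) and *Arnt*, its partner, one of 0.49 (adjusted p = 0.253).

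Several hepatic P450 genes differ between the sexes, so sex-biased lists were counted as well. The study's main text describes male knockout mice and their wild-type littermates for its high-fat and high-carbohydrate diets. It gives no separate sex for the refed mice. Of 12 male-biased genes, 0 passed in either direction (4 lower and 3 higher unadjusted, median log2 fold change -0.37). Of all genes, 6.76% were lower and 6.70% higher by edgeR unadjusted p, and 0.377% and 0.0710% by adjusted p. *Slco1a1*, an organic anion transporter, had a log2 fold change of 0.84 (edgeR adjusted p = 0.0633) and *Hsd3b5*, a steroid dehydrogenase, one of -0.82 (adjusted p = 0.159). By DESeq2 *Slco1a1* passed as higher (adjusted p = 1.07e-05) and *Hsd3b5* as lower (0.0131), and *Slco1a1* also passed with quantile normalisation and limma (0.0365). Of 12 female-biased genes 4 were tested, with 0 lower and 1 higher (1 lower and 2 higher unadjusted, median log2 fold change 1.965). Their fold changes were below 0 for 2 and above 0 for 2, *Acot3* being at -1.45 (edgeR adjusted p = 0.337). The gene that passed was *Cyp3a44*, at 3.37 to 19.6 CPM in wild-type and 106.5 to 779.1 CPM in knockout libraries (log2 fold change 5.04, edgeR adjusted p = 0.0496). Its highest value was in knockout 8-3, without which the log2 fold change was 3.62 (adjusted p = 0.0610). The call was also lost without knockout 7-2 or any wild-type library (0.0549 to 0.205), with upper-quartile factors (0.0526) and with TMM without *Mup* genes (0.0508), and held in DESeq2 (0.000811). The log2 fold change of the closely related *Cyp3a41a* was 4.73 (edgeR adjusted p = 0.0856, DESeq2 adjusted p = 0.00518), and reads could be shared between them.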

How the data were processed

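The authors sequenced liver RNA from a directional library kit and deposited raw counts per gene, for which Bedtools coverage counted unique as well as multiple alignments. The submitters' processing notes name TopHat and mm10. Not given in the sources used here were the aligner version, annotation, strand setting and read length. Groups came from the genotype labels. Counts of 6 libraries (3 wild-type, 3 knockout) were fitted with edgeR 4.0.16 in R 4.3.3 (TMM factors, filterByExpr with min.count 10, two-sided quasi-likelihood test, Benjamini-Hochberg adjustment over all genes tested, threshold 0.05). This left 14076 genes, with a biological coefficient of variation of 23.9%. No libraries were alike within sampling noise (smallest chi-square per degree of freedom 162 over 15 pairs). The authors' own analysis used quantile normalisation and a fold threshold with no test, and that threshold was not applied here. Alternatives were DESeq2 1.42.0, limma 3.58.1 (voom, and quantile-normalised log2 counts), RLE, upper-quartile and no factors, TMM without *Mup* genes, other filters, each library left out, a replicate block, and summing members at least 90% identical. Fits were tested on simulated data. Ratios and shares used exact permutation tests. Ratios were taken for 6 picked gene pairs, and other pairs were not compared. Protein identity used GENCODE coding sequences. Promoter and coordinate data came from RefSeq GRCm38.p6, which matched 23012 of 23282 rows. The 10 genes and all lists were chosen with earlier results of these data known. Genes named were all *Cyp2c* rows, the up to 3 tested genes of smallest p in each list, *Tcf7l2*, and the 5 genes most correlated with the most abundant member. *Cyp2d12* and *Cyp2d34* were named after their values were seen.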

Additional observations from a re-analysis of the deposited data

How the results depend on the processing

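*Cyp2c37* kept its edgeR call with RLE or upper-quartile factors, TMM without *Mup* genes, voom, quantile normalisation, either filter and either replicate block, and lost it without any single library, with library sizes alone, and when summed with its 2 closest relatives. Of 175 values of the 10 genes under alternatives, 143 kept direction and side of the threshold and 20 reversed, whatever their adjusted p. Of those that kept direction, 4 passed newly and 8 no longer passed. *Cyp2c38* reversed and also passed without knockout 7-3 (edgeR adjusted p = 0.000245) and with the block on full label numbers (0.00205). The cause of these shifts was not tested, except that fewer libraries or summed reads enter some fits by construction. With 1 library left out, 0 to 1 of the 10 genes were lower and 0 higher; without knockout 7-3 that 1 gene was *Cyp2c38* and not *Cyp2c37*. Over all genes 21 to 69 were then lower and 3 to 18 higher, against 53 and 10 with all libraries. DESeq2 gave 1 of the 10 genes higher, and 240 lower and 200 higher over all genes. Library sizes alone gave 0 lower and 3 higher of the 10, and 88 lower and 2936 higher over all genes, with the median of all genes at 0.61. Voom gave 6 genes higher, and no filter 23. The replicate block on full label numbers (correlations of deviations 0.0079 and -0.0069 for the 2 shared numbers) gave 2 of the 10 genes lower, 34 of all genes lower and a summed log2 fold change of -0.063; the numbers are not shown to pair the libraries. The replicate block on the leading number gave 33 lower and 6 higher. Reversed log2 fold changes were as follows. With library sizes alone they were *Cyp2c40* 0.44, *Cyp2c50* 0.52, *Cyp2c70* 0.11, *Cyp2c68* 0.13, *Cyp2j9* 0.25, *Cyp2j6* 0.54 and *Alad* 0.052. *Cyp2c38* was at -1.72 with voom and -1.65 with quantile normalisation, where *Cyp2c50* was at 0.045. With the replicate block on full numbers *Cyp2c38* was at -4.54, *Cyp2c39* at -0.099, *Cyp2c54* at -0.20 and *Cyp2c69* at -0.11. With the block on leading numbers *Cyp2c38* was at -0.68, *Cyp2c54* at -0.12 and *Cyp2c69* at -0.0092. Summed with close relatives, *Cyp2c40* was at 0.28 and *Cyp2c54* at -0.21. Leaving out 1 library, *Cyp2c38* ranged from -4.39 to 2.79, *Cyp2c40* from -0.35 to 0.029, *Cyp2c50* from -0.21 to 0.13, *Cyp2c54* from -0.10 to 0.22 and *Cyp2c69* from -0.047 to 0.31. Wild-type levels per kilobase of transcript in place of coding sequence, added after the data were seen, moved by less than 1 SD for *Cyp2c29*, *Cyp2c50*, *Cyp2c70*, *Cyp2c67* and *Cyp2c37* and by more for the other 5 genes.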

Other observations

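The reads of the 10 *Cyp2c* genes made up 0.126% to 0.265% of all counts in wild-type libraries and 0.280% to 0.367% in knockout libraries, before any scaling, while the *Mup* genes took a smaller share in every knockout library than in any wild-type library.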
